A study of Homo sapiens with 40 samples.

Results

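Chromatin accessibility was examined at the genes of 5 carbonic anhydrases, CA2, CA8, CA9, CA12 and CA13, in ATAC-seq peak lists of 40 libraries. ATAC-seq marks open chromatin by where a transposase inserts sequencing adapters. Peaks of all 40 lists that overlapped by at least 1 bp were merged, and 71600 merged regions present in at least 2 lists were kept. A region was assigned to a carbonic anhydrase gene when its midpoint lay in the GENCODE gene body or within 50 kb of either end, which gave 24 regions of the 71600. CA12 had 8 of them, CA13 had 7, CA9 had 5, and CA2 and CA8 had 2 each. Regions were chosen by peak calls in these same lists, and the genes with earlier results of the lists known, so a peak in 2 lists is no result. At the edge of the rule, the farthest CA12 region inside lay 44 kb from the gene and the nearest one outside 68.1 kb, and for CA9 these distances were 26.9 kb and 51.5 kb. The CA9 region with the fewest peaks was in 2 lists, the minimum kept.

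BT474 is a HER2-overexpressing luminal breast carcinoma line that responds to trastuzumab, and BT474R is a trastuzumab-resistant derivative of it, a single clone (clone 5) obtained by growing BT474 in trastuzumab. Cells of both lines were serum starved and then collected at 0 h (baseline) or after 1, 12 or 24 h with EGF, with heregulin (HRG), or with vehicle (water), here called control. Each line, arm and time had 2 libraries, so each line had 2 baseline, 6 control, 6 EGF and 6 HRG libraries. The comparisons are written EGF-BT474, HRG-BT474, EGF-BT474R and HRG-BT474R, each ligand against the control of its own line.

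Carbonic anhydrases interconvert carbon dioxide and bicarbonate, releasing or taking up a proton, and so set the pH on either side of a membrane. CA9 and CA12 are anchored in the plasma membrane with the catalytic domain outside the cell. CA9 is a classical target of the hypoxia-inducible factors, whose DNA motif lies just upstream of its start, and CA12 is known in breast tumours as a gene of estrogen receptor-positive cells. CA2 and CA13 are cytosolic enzymes, and CA8 is a related protein that lacks catalytic activity.

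The sequences below are shown because they lie within regions whose peaks differed between the lines. Letters in capitals mark matches, on either strand, to ACGTG or GCGTG (cores of the hypoxia response element), TGANTCA (AP-1) or GCCNNNGGC (TFAP2). Promoter bases are from RefSeq (GRCh38.p14), and the summit windows, 201 bases around the median summit of the region's peaks, are from GRCh38, all on the strand of the gene. Upstream of CA9 only the 2 matched sites are shown with 10 bases on either side, because an annotated exon of ARHGEF39 overlaps them on the other strand. The AP-1 match starts 77 bases and the ACGTG match 18 bases upstream of the CA9 start. Both lie outside the CA9 summit window.
CA9 AP-1 match, chr9:35673841-35673867, plus strand: gggcgctctgTGAGTCAgcctgctccc
CA9 ACGTG match, chr9:35673900-35673924, plus strand: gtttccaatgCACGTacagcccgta
CA9 summit window, chr9:35673425-35673625, plus strand: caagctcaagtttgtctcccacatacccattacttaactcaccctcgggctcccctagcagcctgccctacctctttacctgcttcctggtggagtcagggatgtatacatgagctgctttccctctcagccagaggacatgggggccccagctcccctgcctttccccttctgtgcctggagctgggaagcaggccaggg
CA12 promoter, chr15:63381847-63382096, minus strand: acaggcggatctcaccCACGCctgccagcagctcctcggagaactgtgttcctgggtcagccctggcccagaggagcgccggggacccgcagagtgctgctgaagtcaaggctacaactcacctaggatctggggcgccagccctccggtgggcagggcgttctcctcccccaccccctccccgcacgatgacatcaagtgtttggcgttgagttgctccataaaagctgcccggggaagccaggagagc
CA12 first-intron summit window, chr15:63379588-63379788, minus strand: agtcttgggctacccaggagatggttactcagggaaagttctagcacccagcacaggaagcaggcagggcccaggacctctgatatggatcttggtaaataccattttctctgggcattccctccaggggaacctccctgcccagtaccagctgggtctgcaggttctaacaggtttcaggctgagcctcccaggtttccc
CA12 distal intronic summit window, chr15:63330109-63330309, minus strand: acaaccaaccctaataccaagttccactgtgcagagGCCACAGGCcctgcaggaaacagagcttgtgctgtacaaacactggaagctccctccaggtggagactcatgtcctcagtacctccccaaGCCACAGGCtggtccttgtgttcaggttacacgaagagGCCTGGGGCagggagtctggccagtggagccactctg

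Each region was scored in a list by the rank percentile of its highest-scoring peak, which runs from near 0 for the weakest peak of that list to 100 for the strongest. The deposited lists hold only peaks with a score of at least 200, so a region without a peak had a lower score or none. BT474 lists held 47571 to 56846 peaks and BT474R lists 32479 to 56494, and the 3 shortest were those of BT474R control 12 h replicate 1 (32479) and both EGF 12 h libraries (38205 and 37476). In bulk samples like these, a peak in fewer cells and a weaker peak in each cell cannot be told apart. Promoters of 9 of 9 luminal epithelial markers were open in all 40 libraries. Of 3 basal markers 2 had a promoter peak, KRT5 in 7 BT474 and 14 BT474R libraries and TP63 in 20 and 15. Of 4 fibroblast markers COL1A1 was open in all 40 libraries and PDGFRB in 12 BT474 libraries. The leukocyte markers PTPRC, CD3E and SPI1 had no promoter peak, and of 3 endothelial markers CDH5 and VWF were open in all 40. Regions are named below by gene and by the distance of their midpoint from the canonical start, in the direction of transcription.

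The first question was how the parental and the resistant line differed at these genes. CA12 and CA9, the extracellular pair, had opposite patterns. The CA12 promoter had a peak in all 20 BT474 lists and in none of the 20 BT474R lists, whereas the CA9 promoter had a peak in none of the BT474 lists and in 13 of the BT474R lists. CA2, CA8 and CA13 promoters were open in all 40, as were 62.4% of protein-coding promoters and 35.1% of all regions. The counts of libraries with a peak were compared by Fisher's exact test (two-sided), adjusted over all 71600 regions after Benjamini and Hochberg. By this test 10 of the 24 regions differed between the lines (41.7%), against 29.3% of all regions. Of these 10, 2 were present more often in BT474R (11% of all regions) and 8 less often (18.4%). The 10 include the CA9 promoter, which the study had singled out on these libraries, so its own test is not given. In the baseline and control libraries alone, 8 per line, 6 of the 24 regions were called, and the CA9 promoter, CA12 +6.5 kb, CA12 -6.1 kb and CA13 +44.8 kb were not among them.

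**Figure D1:**
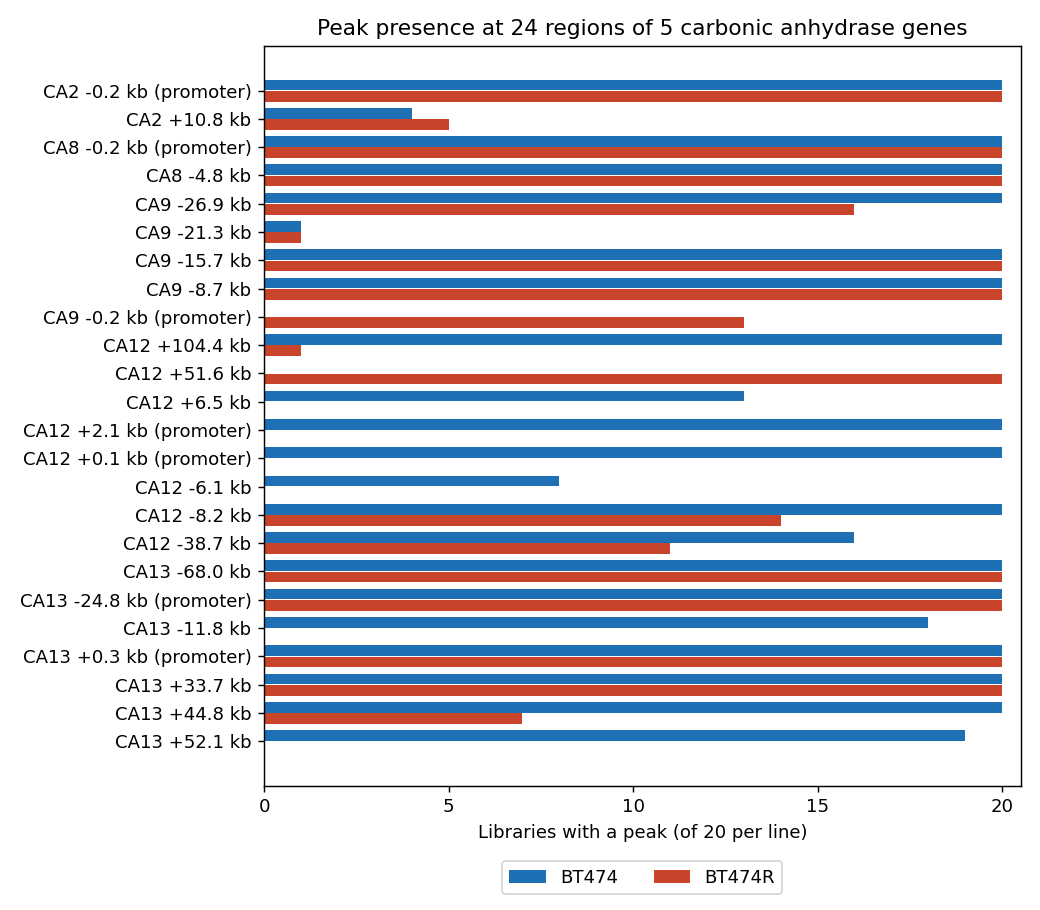
Number of libraries with a peak (horizontal axis, of 20 per line) at each of the 24 regions, for BT474 (blue) and BT474R (red), with promoters of the member gene marked. CA12 regions from -6.1 to +6.5 kb have blue bars only, CA12 +51.6 kb and the CA9 promoter have red bars only, and the CA2, CA8 and CA13 promoters reach 20 in both lines.

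At CA12 (chr15:63321378-63381846, minus strand) the regions around the start were open in BT474 alone. The promoter region, CA12 +0.1 kb (chr15:63381105-63382377, over the first exon and 5′ UTR), had a lowest, median and highest percentile of 60.5, 68.4 and 72.2 in the 20 BT474 libraries. No BT474R library had a peak there (adjusted p = 4.18e-10, Fisher's exact test, 20 libraries against 0). A 20 to 0 split in this direction was found at 2.52% of all regions and at 1.72% of the 18270 regions at protein-coding promoters. The first-intron region CA12 +2.1 kb (chr15:63379335-63380145), which lies within 1 kb of another annotated CA12 start, showed the same 20 to 0 split, with BT474 percentiles of 25.1, 53.5 and 62. Weaker regions flanked them on either side. CA12 +6.5 kb (chr15:63375113-63375550, intronic) had a peak in 13 BT474 libraries and no BT474R library (adjusted p = 8.86e-05), and CA12 -6.1 kb (chr15:63387821-63388071, intergenic) in 8 and 0 (adjusted p = 0.0128). With baseline and control libraries alone neither was called (adjusted p of 0.136 and 1). Their median percentiles in BT474 were 7.22 and 2.27, so these peaks were close to the score limit of the lists.

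The distal intronic region CA12 +51.6 kb (chr15:63329939-63330548) had the reverse pattern. It had a peak in all 20 BT474R libraries, with a lowest, median and highest percentile of 29.1, 47.5 and 60.7, and in no BT474 library (adjusted p = 4.18e-10). A split of 0 to 20 in this direction was found at 0.957% of all regions and 0.449% of protein-coding promoters. Its summit window, printed above, holds 3 GCCNNNGGC matches, a palindromic pattern found in 16.8% of the 71600 windows of that length. The printed summit windows of the CA12 first intron and of the CA9 promoter region held no match.

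Farther from CA12 the lines differed less evenly. The region at +104.4 kb (chr15:63277074-63277733), which is at the promoter of the neighbouring gene APH1B, was open in 20 BT474 and 1 BT474R libraries (adjusted p = 5.78e-09). That call was lost when only peaks with a score of at least 400 were kept (adjusted p = 0.252). With the 32479 strongest peaks of each list it was lost too (adjusted p = 0.529, Fisher's exact test). CA12 -8.2 kb (chr15:63389808-63390247), at the start of the noncoding gene LINC02568, was open in 20 and 14 libraries and did not pass (adjusted p = 0.0628), but its median percentile was 39.7 in BT474 and 9.52 in the BT474R libraries with a peak. It passed with peaks of a score of at least 400 (adjusted p = 3.45e-07). It also passed when any 1 of the 14 BT474R libraries with a peak was left out (adjusted p of 0.0276 to 0.0278). Leaving out such a library removes a value that goes against the difference, so those calls add no support. CA12 -38.7 kb was open in 16 and 11 libraries (adjusted p = 0.424), with medians of 25.9 and 25.1.

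**Figure D2:**
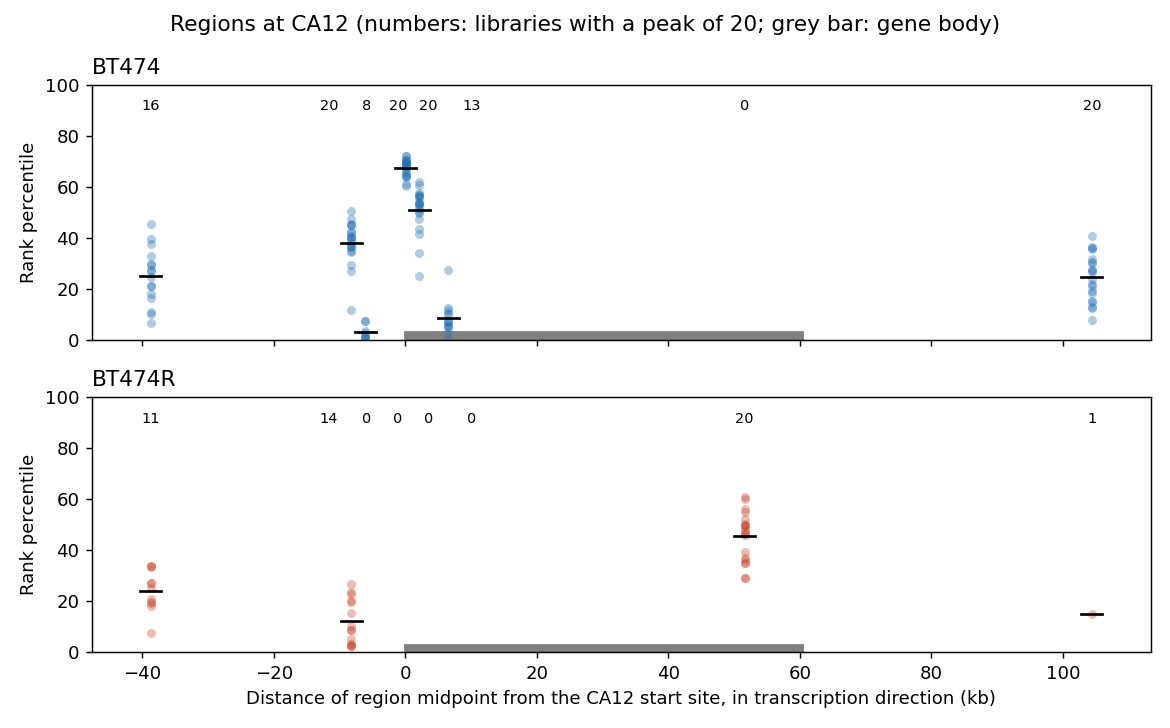
Rank percentile of each library's peak (vertical axis) at the 8 CA12 regions by distance from the CA12 start in kb (horizontal axis), BT474 above and BT474R below, with black lines for means and numbers for libraries with a peak of 20. Peaks at and just inside the start appear in the upper panel alone, and the peaks at 51.6 kb appear in the lower panel alone, at 29.1 to 60.7.

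The CA9 promoter region, CA9 -0.2 kb (chr9:35673232-35674207, over the start of CA9 and within an overlapping ARHGEF39 annotation), was followed by line, arm and time as a description. The study had singled out CA9 for EGF-treated BT474R, so no test is given for it. In BT474 none of the 2 baseline, 6 control, 6 EGF and 6 HRG libraries had a peak. In BT474R a peak was present in 1 of 2 baseline, 2 of 6 control, 5 of 6 EGF and 5 of 6 HRG libraries. Both ligands thus had the same number of libraries with a peak, 3 more than the control, as large a gain as was seen at 3.5% of all regions for EGF and 3.96% for HRG. A peak in no BT474 and at least 13 BT474R libraries was found at 3.53% of all regions and 1.38% of protein-coding promoters. The peaks had their summits at a median of 403 bases upstream of the start.

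In BT474R the percentile of the CA9 promoter was highest at 24 h. At baseline it was 37.5 in replicate 1, and replicate 2 had no peak. At 1 h both control libraries lacked a peak, 1 EGF library had one at 7.98 and 1 HRG library had one at 24.8. At 12 h both control libraries lacked a peak, the EGF libraries were at 54.0 and 47.7 and the HRG libraries at 39.5 and 44.1. Thus at 12 h all 4 ligand-treated libraries had the peak and neither control did. At 24 h the EGF libraries were at 80.0 and 81.2, the HRG libraries at 70.9 and 64.1, and the control libraries at 19.2 and 58.7. All 6 libraries had a peak at that time, with 2 libraries per arm. The 24 h EGF peaks had scores of 1280 and 1266, against 285.5 and 653.6 in the controls.

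**Figure D3:**
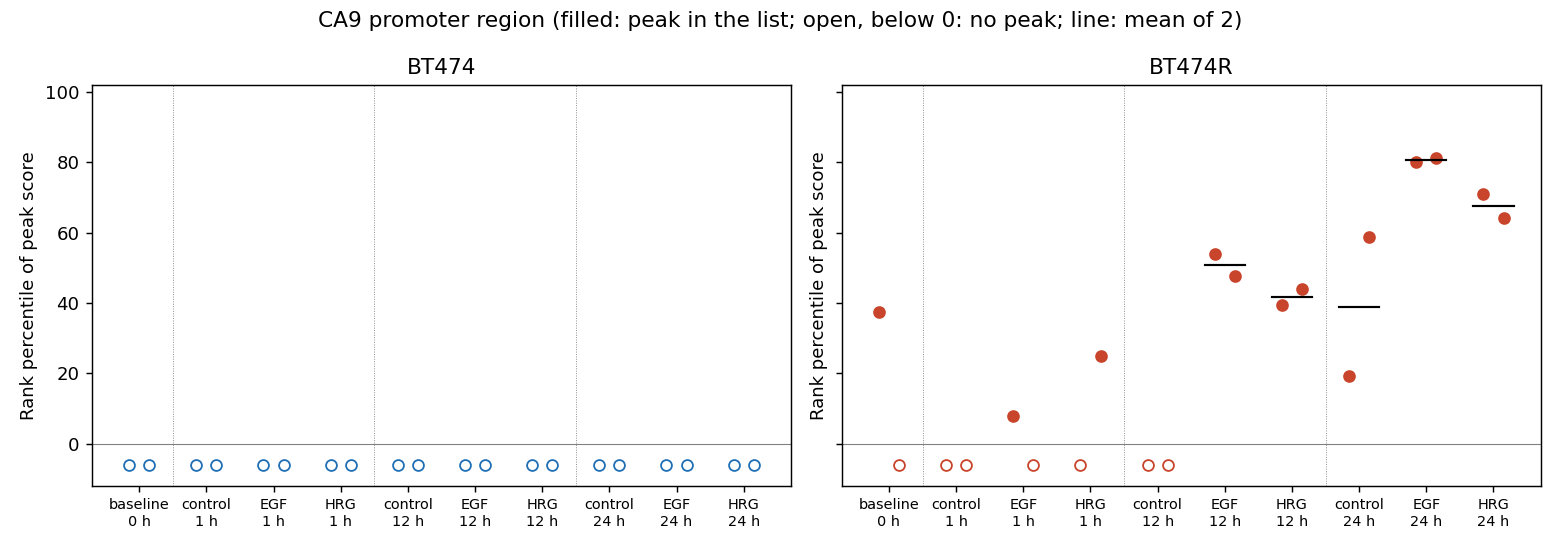
Rank percentile of the CA9 promoter peak (vertical axis) by arm and time (horizontal axis) in BT474 (left) and BT474R (right), with filled points for libraries with a peak, open points below 0 for libraries without one, and lines for the mean of 2. All 20 BT474 points are open, and in BT474R the 24 h EGF points, at 80.0 and 81.2, are the highest.

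List lengths overlapped between BT474R libraries with and without the CA9 peak. The 13 BT474R lists with the peak held 37476 to 56334 peaks (median 45808) and the 7 without it 32479 to 56494 (median 47474). The control 12 h replicate 1 list was the shortest of all and lacked the peak, and both EGF 12 h lists, the next shortest, had it. The 12 h control replicate 2, with 40331 peaks, lacked it too. Whether list length or depth bore on the missing peaks was not tested.

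The other 4 regions in the CA9 window lie upstream of it, 3 of them at promoters of neighbouring genes. CA9 -8.7 kb (chr9:35664921-35665533), at the ARHGEF39 promoter, and CA9 -15.7 kb (chr9:35657345-35659125), at the promoters of CCDC107 and the noncoding RNA gene RMRP, were open in all 40 libraries. The CD72 promoter region at -26.9 kb was open in 20 BT474 and 16 BT474R libraries (adjusted p = 0.26, and 0.000134 with peaks of a score of at least 400), and an intergenic region at -21.3 kb in 1 library of each line. The mean percentile of the ARHGEF39 promoter was 61.3 ± 2.82 in BT474 and 43.0 ± 9.27 in BT474R (SD, n = 20 each), a difference of -18.2 points (SE 1.89, limma adjusted p = 1.13e-08).

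The genes whose promoter regions followed CA9 most closely over the 40 libraries, with absent peaks set to 0, were FADS2 (Pearson's r = 0.923), GSS (0.862), GPR137B (0.853), C8orf58 (0.845) and KLK2 (0.841), of 18270 promoter regions. The FADS2 promoter was open in 0 BT474 and 10 BT474R libraries. For the CA12 promoter they were DDX60 (0.999), ERVMER34-1, PRDM9, TCAF1 and NPR3 (0.998 each), regions open in 20 BT474 libraries and at most 1 BT474R library. These correlations are descriptions, since the 40 libraries share lines, arms and times.

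The promoters of CA2, CA8 and CA13 were open in every library and were compared between the lines by rank. Among regions with a peak in all 40 libraries, 9 belonged to the members, and all 9 differed between the lines by limma, 2 higher and 7 lower in BT474R. This was so for 81.6% of the 25166 regions tested (32% higher, 49.6% lower), a share so large that the count is no result about these genes. The median difference was -9.17 points over the 9 regions and -1.51 over all 25166.

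CA8 had the largest difference of the 9. The CA8 promoter region (CA8 -0.2 kb, chr8:60280672-60282465) had percentiles of 76.5, 79.6 and 90.1 (lowest, median, highest) in BT474 and 21.1, 51.1 and 85.1 in BT474R. The difference was -29.0 points (SE 2.30, limma adjusted p = 1.44e-10), and the ranges overlapped. Spread among the BT474R libraries was wide (SD 17.5, against 3.67 in BT474), with both EGF 12 h libraries lowest at 24.1 and 21.1 and baseline replicate 1 highest. CA8 -4.8 kb (chr8:60286066-60286396, intergenic) went the other way, from 25.1 ± 7.41 in BT474 to 31.9 ± 11.0 in BT474R (SD, n = 20; difference 6.82 points, SE 2.13, limma adjusted p = 0.00582). With the 32479 strongest peaks of each list it was also present more often in BT474R (adjusted p = 2.32e-05, Fisher's exact test).

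CA2 was open at a high rank in both lines. Its promoter region (CA2 -0.2 kb, chr8:85463182-85464462, shared with the start of CA3-AS1) was at 90 ± 0.81 in BT474 and 80.2 ± 4.46 in BT474R (SD, n = 20). The difference was -9.8 points (SE 0.749, limma adjusted p = 7.82e-11), and the ranges were 88.5 to 91.5 and 68.8 to 85.8.

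CA13 has 2 annotated start regions, and both were open in every library. The upstream one (CA13 -24.8 kb, chr8:85219866-85221452), shared with the gene RBIS, had medians of 96.5 in BT474 and 95.1 in BT474R. The canonical one (CA13 +0.3 kb, chr8:85245363-85246174) was at 64.0 ± 4.67 and 53.8 ± 10.5 (SD, n = 20; difference -10.2 points, SE 1.92, limma adjusted p = 4.99e-05). With baseline and control libraries alone that difference was -8.78 points and was not called (adjusted p = 0.0606). The intronic region CA13 +33.7 kb was 2.85 points higher in BT474R (SE 1.23, limma adjusted p = 0.037), which was lost on a log2 score scale (adjusted p = 0.197) with peaks of a score of at least 400 (0.441) and when any 1 of 18 of the 40 libraries was left out (0.051 to 0.0726). The remaining region open throughout, at the E2F5 promoter (CA13 -68.0 kb), differed by -9.17 points.

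The remaining 3 CA13 regions were found mainly in BT474. CA13 -11.8 kb (chr8:85233225-85234083, intronic) had a peak in 18 BT474 and no BT474R libraries (adjusted p = 5.08e-08, Fisher's exact test), and CA13 +52.1 kb (chr8:85297484-85297700, downstream) in 19 and 0 (adjusted p = 5.78e-09). CA13 +44.8 kb was open in 20 and 7 libraries (adjusted p = 8.86e-05), which was not called with baseline and control libraries alone (adjusted p = 0.136). Their median percentiles in BT474 were 29.0, 16.4 and 24.0. With the 32479 strongest peaks of each list, the first of them was no longer called (adjusted p = 0.274).

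**Figure D4:**
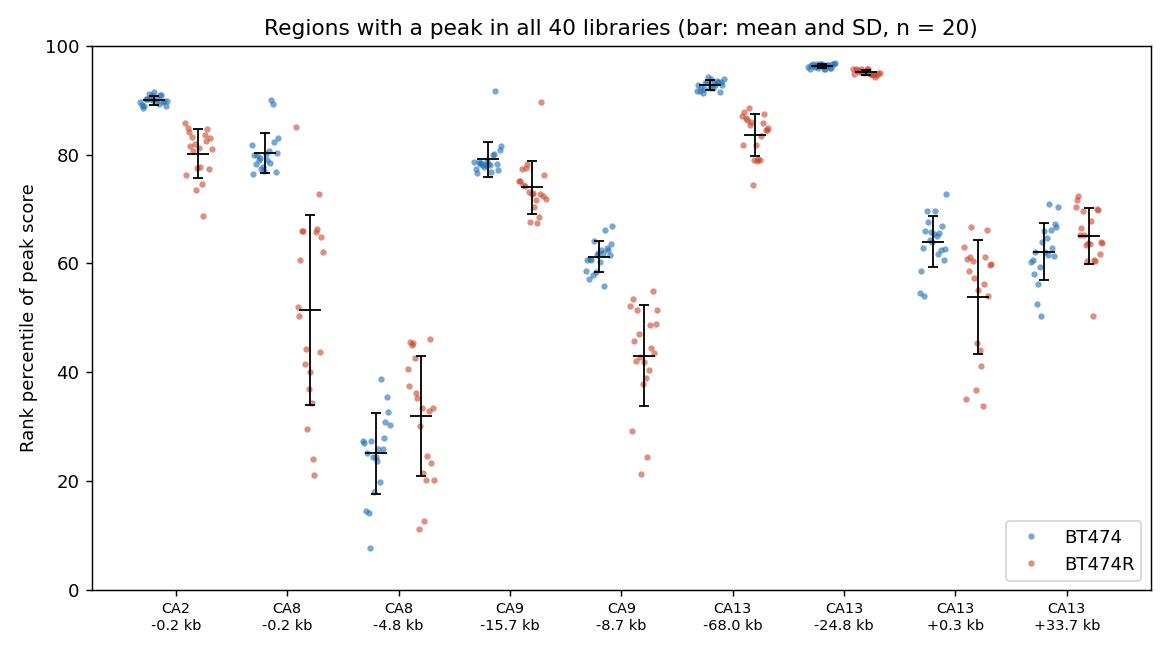
Rank percentile of each library (vertical axis, points) at the 9 regions with a peak in all 40 libraries (horizontal axis), BT474 in blue and BT474R in red, with black bars for mean and SD over 20 libraries. The CA8 promoter has the widest BT474R spread, from 21.1 to 85.1, while the upstream CA13 start lies at 94.2 to 96.9 in both lines.

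The second question was whether EGF or HRG changed these regions within a line. By peak presence, 6 ligand against 6 control libraries, none of the 24 regions reached an unadjusted p under 0.05 in any of the 4 comparisons (Fisher's exact test). Over all regions 1.19% did in EGF-BT474, 1.64% in HRG-BT474, 0.388% in EGF-BT474R and 0.207% in HRG-BT474R, and 0 of 71600 passed after adjustment in each. With 6 against 6 libraries, even a full split gives a p that passes this adjustment only if very many regions share it. No conclusion is drawn from the absence of adjusted calls. By limma on the rank percentiles, averaged over 1, 12 and 24 h, 0 of 15 member regions open in all BT474 libraries were called for either ligand, against 17.8% of regions for EGF and 17.7% for HRG, and at an unadjusted p under 0.05 there were 0 for EGF and 3 for HRG (CA12 +2.1 kb, CA12 -8.2 kb and CA13 +44.8 kb, each lower). In BT474R 0 of 10 were called and 0 had an unadjusted p under 0.05 (limma), against 13.7% and 7.57% of regions called. Of the 9 regions open in all 40 libraries, 0 were called for a difference of the ligand effect between lines (limma, 2.89% of regions called for EGF and 1.51% for HRG), and 1 for each ligand had an unadjusted p under 0.05. EGF against HRG gave 0 of 24 calls in either line by presence (0.0489% and 0.0936% of regions) and 0 of 15 and 0 of 10 by rank (limma, 0.0462% and 3.48%), with 2 regions in each line at an unadjusted p under 0.05.

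CA12 showed its lowest first-intron values 1 h after HRG. At CA12 +2.1 kb in BT474 the HRG 1 h libraries were at 25.1 and 34.0, the EGF 1 h libraries at 43.6 and 41.4, the control 1 h libraries at 56.8 and 47.6 and the baseline libraries at 53.6 and 53.5. Both HRG values lay below every other BT474 library. The HRG value was 22.7 points lower than control at 1 h (means 29.6 and 52.2, SE 3.58, limma adjusted p = 0.00382), when 9.62% of the 36820 regions were called. This call was kept when any 1 of the 4 libraries was left out, with differences from -27.3 to -18.1. For EGF at 1 h the difference was -9.75 points (SE 3.58) and was not called (adjusted p = 0.198). At 12 h and 24 h the HRG libraries were at 62, 57, 56 and 50, beside controls at 51.5, 53.4, 52.5 and 50.2, and no call was made.

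The LINC02568 start at CA12 -8.2 kb had the same order at 1 h. HRG libraries were at 11.6 and 27.0, EGF libraries at 36.4 and 29.6 and control libraries at 40.5 and 37.9. The HRG difference was -19.9 points (SE 4.87, limma adjusted p = 0.0271). It was no longer called without control 1 h replicate 1 (adjusted p = 0.132), without control 1 h replicate 2 (0.0982) or without HRG 1 h replicate 1 (0.207). The CA12 promoter itself, at 60.5 and 67.0 after HRG and 67.7 and 64.2 in controls at 1 h, was not called.

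At the CA8 promoter in BT474 the 24 h controls stood apart. They were at 90.1 and 89.3, against 80.3 and 83.0 after EGF, 82.4 and 76.9 after HRG and 81.8 and 76.5 at baseline. Relative to those shared controls the differences were -8.09 points for EGF (SE 1.98, limma adjusted p = 0.0212, 13.2% of regions called) and -10.1 for HRG (SE 1.98, limma adjusted p = 0.00879, 10.7% called). The EGF call was lost without control replicate 1 (adjusted p = 0.0962), control replicate 2 (0.092) or EGF replicate 1 (0.138), and the HRG call without control replicate 1 (0.0524) or HRG replicate 2 (0.0757).

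**Figure D5:**
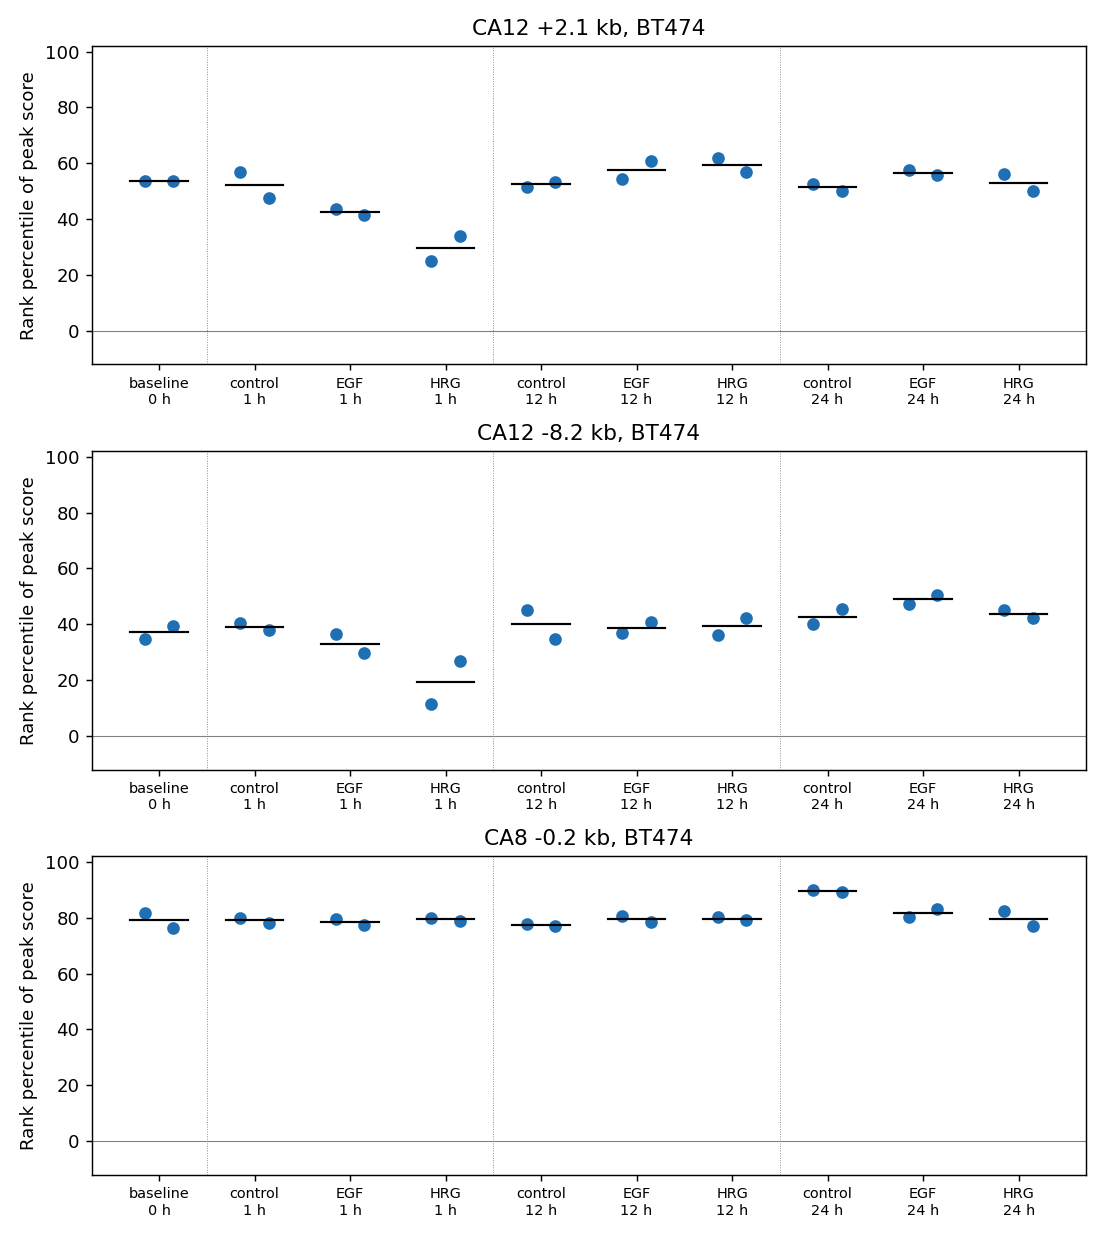
Rank percentile in BT474 (vertical axis) by arm and time (horizontal axis) at CA12 +2.1 kb, CA12 -8.2 kb and the CA8 promoter, with a point for each library and a line for the mean of 2. HRG 1 h is lowest in the upper panels, with means of 29.6 and 19.3, and control 24 h is highest in the lower panel.

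A weak intronic CA2 region, CA2 +10.8 kb (chr8:85474675-85474978), was present in ligand-treated libraries alone. It had a peak in 2 EGF and 2 HRG libraries of BT474 and in 3 EGF and 2 HRG libraries of BT474R, and in none of the 16 baseline and control libraries. Most of these peaks were near the score limit, with percentiles from 0.658 to 13.6, but the 24 h EGF libraries of BT474R were at 21.2 and 27.3. No single comparison passed the exact test at 6 against 6. The region was kept in the set only through ligand-treated libraries, so its absence from the other libraries is no evidence of a ligand effect. The window around its summit holds a TGANTCA match, as do 16.3% of all windows. The weak CA12 -6.1 kb region had peaks in 4 EGF, 3 HRG, 1 baseline and 0 control libraries of BT474.

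The BT474R controls were also compared with baseline at each time. At 1 h and at 24 h 0 of 10 member regions were called by limma, against 0.0743% and 3.38% of all regions tested. At 12 h, when the control lists were short, 3 of 10 member regions were lower than at baseline by limma, against 31% of the 28260 regions called, so the count is no result about these genes. These were the CA8 promoter (33.2 against 68.5, adjusted p = 0.0245), CA12 +51.6 kb (32.8 against 52.2, adjusted p = 0.0228) and the E2F5 promoter (76.7 against 84.5, adjusted p = 0.0196). All 3 calls were lost without baseline replicate 1 (adjusted p of 0.169, 0.114 and 0.129) and without control 12 h replicate 1 (0.195, 0.21 and 0.213). With the 32479 strongest peaks of each list, the CA8 and E2F5 promoters were not called either (adjusted p of 0.247 and 0.344).

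The rest of the pathway was read at promoters. Of 10 other carbonic anhydrases, 5 had a promoter region (CA1, CA4, CA5B, CA10 and CA11), each open in all 40 libraries. By presence none was called in any comparison. By rank CA1 was higher in HRG-BT474R by 9.43 points (SE 1.65, limma adjusted p = 0.00863), the only ligand call of the 5 by limma, where 7.57% of all regions were called. Between the lines 3 of 5 were higher in BT474R and 0 lower, against 32% and 49.6% of all regions.

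Of 18 acid and bicarbonate transport genes, 15 had a promoter region, and 3 were present less often in BT474R and 0 more often. These were SLC4A4, a sodium bicarbonate cotransporter (13 BT474 and 1 BT474R libraries), and the monocarboxylate transporters SLC16A1 (20 and 2) and SLC16A7 (15 and 0). Among protein-coding promoters 12.6% were present less often in BT474R, 4.18% more often and 16.8% either way. SLC16A3, a lactate exporter, was open in all 40 libraries and was higher in BT474 after EGF (2.84 points, SE 0.596, limma adjusted p = 0.00641) and after HRG (3.27 points, SE 0.596, limma adjusted p = 0.00287).

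All 19 hypoxia response genes had a promoter open in all 40 libraries, so none shared the presence pattern of CA9. By rank 0 of 19 were called in EGF-BT474R or HRG-BT474R, with median differences of -0.126 and 0.593 points. Of all regions tested, 13.7% and 7.57% were called there. In BT474 0 were called after EGF and 1 after HRG (PGK1, lower by 1.76 points, SE 0.533, limma adjusted p = 0.0417). The shares of all regions called there were 17.8% and 17.7%. Between the lines 6 of 19 were higher and 8 lower in BT474R, against 32% and 49.6% of all regions tested, so these counts do not set the list apart. ADM, a secreted peptide gene, fell by 39.7 points (SE 1.95, limma adjusted p = 4.76e-14), and EPAS1, which encodes HIF-2 alpha, was 12.5 points higher (SE 0.707, limma adjusted p = 4.81e-13).

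In the summit windows of the 24 regions, ACGTG or GCGTG occurred in 9 (29.7% of all windows), TGANTCA in 5 (16.3%), GCCNNNGGC in 5 (16.8%), and TGTTTAC (FOXA1) and the CTCF motif in 0 (8.58% and 3.73%). These are letter matches in windows of 201 bases. Of 35116 RefSeq promoters, read over 250 bases upstream, 18.5% held ACGTG and 6.57% held TGANTCA, both of which the CA9 promoter holds, and 32.2% held GCGTG, which the CA12 promoter holds.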

How the data were processed

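The deposited peak lists came from ATAC-seq of 2 libraries for each line, arm and time. The authors trimmed reads (Trim Galore 0.6.6, per the submitters' processing notes), mapped them to GRCh38.p13 with BBMap and ran Genrich on each sorted library, dropping mitochondrial and blacklisted reads. The Genrich settings are not stated. Column 7, the score used, is the area under the significance curve as deposited by the authors, and columns 8 and 9 hold −log10 p and −log10 q as deposited by the authors, which entered no test. The lists hold no read counts, so depth is unknown and the authors' count model was not repeated. Peaks on autosomes and X were used.

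Peaks were merged (1 bp overlap, at least 2 lists), scores were ranked within each list and annotated with GENCODE 44. Presence was tested by two-sided Fisher's exact test (scipy 1.17.1) and rank percentiles by limma 3.58.1 (R 4.3.3) on regions open in every library compared, with 1 mean per line, arm and time and Benjamini-Hochberg adjustment over all regions at 0.05. Ligand presence was called at an unadjusted p of 0.05. Both tests were tested on simulated data. Windows were read from GRCh38, whose chromosome ends no peak passed (23 chromosomes). Between 0.566% and 1.36% of peaks had identical bounds in both libraries of a group. Nothing in the sources says that replicates came from separate cultures, so p-values measure the spread between these samples.

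The text describes promoter regions (within 1 kb of a start), regions called in any comparison and the 2 other highest-ranked regions per gene. The promoters most like CA9 and CA12, and the pathway and marker lists, are given by promoter region. Alternatives were other score limits, top-peak numbers, overlaps, windows and scales, and leaving out each library. The members and lists were chosen with earlier results of these data known. A few genes of the lists are not reported here.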

Additional observations from a re-analysis of the deposited data

How the results depend on the processing

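The peak lists set the limits of these results: they omit scores under 200, they carry no depth, and each line, arm and time has 2 libraries. No paired reading of the replicate numbers was made, because the deviations of same-numbered libraries correlated between -0.201 and 0.256. A fit with the replicate block gave 0 calls in each ligand comparison and in both comparisons of ligand effects, and 9 calls between the lines, the same counts as without it. Between the lines, presence calls numbered 6 with baseline and control libraries alone, and 7 to 10 of the regions left under a score of at least 400, the equal number of top peaks, 50% coverage, regions in at least 4 lists, a window of 10 kb or, chosen after seeing the data, without the 3 short BT474R lists. Rank calls between the lines numbered 20 (4 higher, 16 lower) with absent peaks as 0, on 24 regions, and 4 with a score of at least 400, on 5 regions. With absent peaks as 0, EGF-BT474R had 2 calls. These were CA2 +10.8 kb, kept only through ligand-treated libraries, and the CA9 promoter, which the study had singled out. The EGF and HRG effects each differed between lines at 1 region, also the CA9 promoter. Every BT474 value there was 0 in this setting, so that difference is the BT474R effect alone. These calls are therefore no independent evidence of a ligand effect. Without the short lists, EGF-BT474R had 1 presence call, again CA2 +10.8 kb, which carries the same limit. At single times, also added after seeing the data, rank calls numbered 1 for EGF-BT474 at 24 h, 2 for HRG-BT474 at 1 h and 1 for HRG-BT474 at 24 h. The cause of these changes was not tested, except that fewer or more regions entered the settings named with their number.

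When each library was left out in turn, presence calls ranged from 0 to 1 in EGF-BT474, were 0 in HRG-BT474, EGF-BT474R and HRG-BT474R, and ranged from 10 to 11 between the lines. The EGF-BT474 call was CA12 -6.1 kb, without EGF 12 h replicate 1 or EGF 24 h replicate 1 (exact p = 0.0152 each). Rank calls ranged from 0 to 1 in EGF-BT474, HRG-BT474, HRG-BT474R and the HRG effect between lines, were 0 in EGF-BT474R and the EGF effect, and ranged from 8 to 9 between the lines. They were CA8 -4.8 kb without EGF 12 h replicate 1, CA9 -15.7 kb without control 24 h replicate 1 (both ligands), CA12 -8.2 kb without HRG 1 h replicate 2 and the CA8 promoter without HRG 24 h replicate 1 in BT474, and CA9 -15.7 kb without HRG 24 h replicate 2 in BT474R and in the HRG effect. The CA13 +33.7 kb difference between lines ranged from 2.34 to 3.37 points. No called result changed direction.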
